A study of Mus musculus with 4 samples.

Results

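The genes described here are 10 tuft cell genes, *Pou2f3*, *Gfi1b*, *Trpm5*, *Gnat3*, *Dclk1*, *Avil*, *Il25*, *Chat*, *Alox5* and *Ltc4s*, of the 46095 gene symbols counted in RNA from mouse stomach. They were named as transcription factors, taste signalling genes and effector genes of tuft cells, and they were selected on the comparison of MYC-KI with WT in these same samples, with its values in view. The values of the 10 genes are therefore given as a description, and no test is drawn from them. The study asked what overexpression of *c-Myc* in the parietal cell lineage does to the stomach, and it compared 2 MYC-KI samples (genotype Atp4b-cre;MycOE) with 2 WT samples, all from C57BL/6 mice 12 weeks of age. In MYC-KI mice a floxed *c-Myc* transgene is switched on by Cre, which is driven by the promoter of *Atp4b*, a proton pump subunit gene of parietal cells, so the model acts on that lineage and was not aimed at tuft cells. The WT mice are labelled wild type, and the study describes its controls as Myc^fl/fl littermates. The design text speaks of triplicates, while 2 samples of each genotype are listed. No source says whether a sample is 1 animal or a pool, so p-values measure only the spread between these samples, which may be technical. Total counts were 36152857 and 30260305 in WT replicates 1 and 2, and 31350412 and 41463647 in MYC-KI replicates 1 and 2.

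Tuft cells are scattered epithelial cells with a brush of long microvilli that sense the contents of the lumen. They use the cascade of taste cells, in which a G protein with the subunit gustducin and phospholipase C release calcium through inositol trisphosphate receptors and calcium opens the cation channel TRPM5. The factor POU2F3 is needed for their formation, and they signal to neighbouring cells with interleukin 25, cysteinyl leukotrienes and acetylcholine. In the stomach they lie among the cells of the glands and are commonly recognised by DCLK1.

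The names and counts of the deposited table did not run in the same order in the 2 genotypes. Over all genes, r between the genotype means of log2(count + 1) was 0.524 in the table as deposited and 0.985 once the MYC-KI counts, kept in their order, were set beside an alphabetical list of the symbols by character code. None of the 10 genes held the same place in both orders. Beside the name *Dclk1* the deposited table held 823 and 846 WT counts beside 0 and 1 MYC-KI counts, and after sorting the MYC-KI counts were 4214 and 3689. Over the 61 names around each gene, r across genes was 0.909 (*Chat*) to 0.988 (*Avil*) after sorting and -0.171 to 0.356 before. Shifting the sorted MYC-KI counts by up to 50 names either way gave no higher r at any of the 10 genes, and the highest r at another shift was 0.516. All values that follow come from the sorted table, and the direction of 5 genes depends on it: with the deposited order the log2 fold changes of *Trpm5*, *Dclk1*, *Pou2f3*, *Alox5* and *Gnat3* were -1.01, -10.66, -9.31, -1.49 and 1.01.

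Some libraries stood apart in tissue markers. Summed over 8 markers of the squamous forestomach, the normalised level was 1646 and 995 CPM (counts scaled to 1000000 per library) in WT and 702 and 3071 CPM in MYC-KI, so MYC-KI replicate 2 was the highest and MYC-KI replicate 1 the lowest. The 6 smooth muscle markers summed to 7640 and 4827 CPM in WT and to 2479 and 5270 CPM in MYC-KI, lowest in MYC-KI replicate 1. Markers of megakaryocytes and erythroid cells summed to 202 and 66.8 CPM in WT and to 28.5 and 30.02 CPM in MYC-KI, highest in WT replicate 1. The 6 markers of intestinal epithelium, which also holds tuft cells, summed to 633 and 378 CPM in WT and to 660 and 233 CPM in MYC-KI, and the 2 mucous neck markers to 9863 and 12194 CPM in WT and to 19714 and 8667 CPM in MYC-KI. In both lists MYC-KI replicate 1 was the highest and MYC-KI replicate 2 the lowest, and the part of intestinal tissue in the tuft cell values was not tested. The stomach label fitted its markers: the parietal cell list summed to 14105 and 14264 CPM and the chief cell list to 84819 and 80484 CPM in WT. In MYC-KI these sums were 1694 and 1629 CPM and 1160 and 1494 CPM, and *Car2*, the only parietal marker not called, made up 1398 and 1300 CPM of the parietal sums.

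Of the 10 tuft cell genes, *Trpm5*, *Dclk1*, *Pou2f3* and *Alox5* were 3.63 to 5.06 times as high in MYC-KI as in WT and passed its thresholds for a call. *Gfi1b*, *Chat*, *Il25* and *Ltc4s* were also higher in both MYC-KI samples than in both WT samples but did not pass, and *Gnat3* and *Avil* overlapped between the genotypes. A gene was called where edgeR's quasi-likelihood test gave a Benjamini-Hochberg adjusted p under 0.05 over all genes tested and the change was more than 1.5-fold either way, the limits of the study. On that rule 4 of the 10 genes were called higher and 0 lower, 5 were not called and *Il25* was not tested, beside 10.7% of 17643 genes tested (5.65% higher and 5.08% lower). The levels of 8 of the 10, and of 7 of the 9 tested, were higher in MYC-KI with no overlap, beside 33.3% of genes tested. The choice of these genes used the same contrast, so nothing is read from the counts. In bulk RNA of whole stomach, more tuft cells and more RNA per tuft cell cannot be told apart.

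The count of calls depends on the WT samples. With either WT sample left out edgeR called 0 genes in the whole table, while 3554 genes without WT replicate 1 and 3410 without WT replicate 2 had an unadjusted p under 0.05, and the lone WT sample was assumed to vary like the MYC-KI pair. With DESeq2, the package of the study, run on all 4 samples, 3232 genes were called, and 26731 genes had any count. DESeq2 can leave genes with low counts without an adjusted p, so fewer than these 26731 may have been open to a call. Among the called genes were 6 of the 10 tuft cell genes, with *Gfi1b* and *Ltc4s* added. The same 6 were called by edgeR with no filter on low counts, beside 2618 of 26731 genes. With library size in place of normalisation factors the median shift of the genes tested went from 0.01 to 0.23 in log2, and the calls from 996 higher and 896 lower to 2272 higher and 739 lower. Of the tuft cell genes 7 were then called higher, with *Chat* added to those 6. Without MYC-KI replicate 1, *Pou2f3* was not called.

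**Figure D1:**
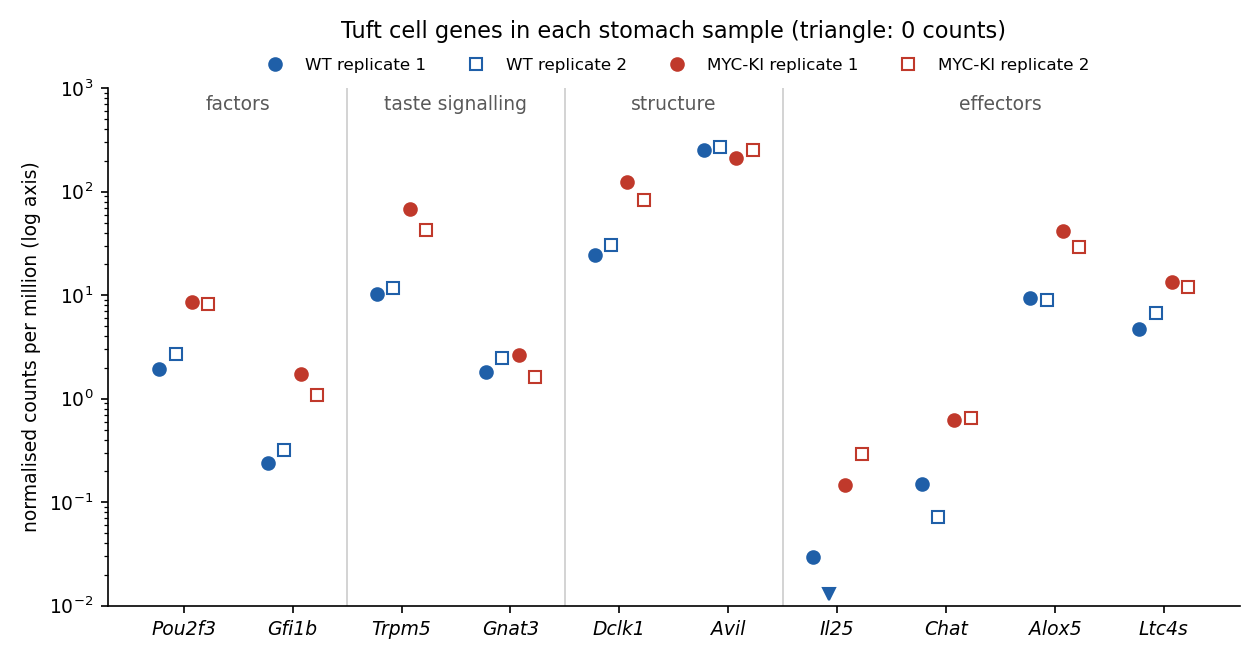
Normalised CPM (log axis) of the 10 tuft cell genes in each of the 4 stomach samples, blue for WT and red for MYC-KI, filled circles for replicate 1 and open squares for replicate 2, with a triangle at the bottom for 0 counts. The red points lie above the blue points for 8 genes, and the colours overlap for *Gnat3* and *Avil*.

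Transcription factors come first. *Pou2f3*, the factor that sets up the tuft cell lineage (chr9:43123939-43210369, minus strand, GRCm38), had 1.94 and 2.72 CPM in WT and 8.64 and 8.28 CPM in MYC-KI. Both MYC-KI samples lay above both WT samples, and the log2 fold change was 1.86 with a standard error (SE) of 0.28. *Gfi1b*, a zinc finger repressor of blood cell development that tuft cells also express (chr2:28609450-28621982, minus strand), had 8 and 9 counts in WT and 59 and 49 counts in MYC-KI. These are 0.238 and 0.323 CPM in WT and 1.74 and 1.10 CPM in MYC-KI, with no overlap and a log2 fold change of 2.33 (SE 0.50). It was not called. Since *Gfi1b* also belongs to megakaryocytes and erythroid cells, some of their 7 markers are given beside it. *Itga2b* rose, with 1.58 and 1.51 CPM in WT and 5.48 and 5.06 CPM in MYC-KI (adjusted p = 0.0314, edgeR), and *Hba-a1*, the most abundant of them, fell (adjusted p = 0.0493). *Ppbp* was at 0 in every sample and *Pf4* did not exceed 0.251 CPM. The part of these cells in the *Gfi1b* values was not tested.

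The taste signalling genes *Trpm5* and *Gnat3* differed from each other. *Trpm5*, the cation channel at the end of the cascade (chr7:143069153-143094642, minus strand), had 10.3 and 11.6 CPM in WT and 68.7 and 42.5 CPM in MYC-KI. MYC-KI replicate 1 was the higher of a pair that lay well above both WT samples, and the log2 fold change was 2.34 (SE 0.27). Leaving out single samples, it ran from 1.96 without MYC-KI replicate 1 to 2.65 without MYC-KI replicate 2. *Gnat3*, which encodes gustducin (chr5:17962549-18019834, plus strand), had 1.82 and 2.47 CPM in WT and 2.65 and 1.61 CPM in MYC-KI. Its samples overlapped, the log2 fold change was -0.01 (SE 0.41), and the sign turned with library size alone (0.21) and with the sample left out (-0.41 to 0.31). The exons of *Trpm5* and of the opposite strand gene *Tssc4* share 220 bases, and *Tssc4* had 16.2 and 18.4 CPM in WT and 27.8 and 22.5 CPM in MYC-KI. The strand used in counting is not given in the sources used here, so reads from the shared bases cannot be told apart.

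*Dclk1* and *Avil* encode proteins of the cytoskeleton. *Dclk1*, a kinase that binds microtubules (chr3:55242364-55539068, plus strand), had 24.5 and 30.3 CPM in WT and 124 and 82.6 CPM in MYC-KI. The genotypes did not overlap, and the log2 fold change was 1.91 (SE 0.24), with a range of 1.59 to 2.18 when each sample was left out. *Avil*, which encodes the actin bundling protein advillin (chr10:127000709-127020994, plus strand), had 254 and 272 CPM in WT and 214 and 254 CPM in MYC-KI. Its genotypes overlapped and the log2 fold change was -0.17 (SE 0.12), or 0.05 with library size alone. Both genes, and *Chat*, are also expressed by neurons. The 13 enteric neuron markers summed to 128 and 82.1 CPM in WT and 46.7 and 69.4 CPM in MYC-KI, 1 of them fell (*Ret*, log2 fold change -0.97, adjusted p = 0.0402, edgeR), 0 rose, and *Hand2* was the most abundant. By unadjusted edgeR p under 0.05 a rise was seen in 0 of the 13, beside 3130 of 17643 genes tested. Calls over all genes tested were 5.65% higher and 5.08% lower. Of the 13 markers 11 were lower in MYC-KI with no overlap and 0 higher, beside 31.5% and 33.3% of genes tested. The part of neurons in the *Dclk1*, *Avil* and *Chat* values was not tested. The 5 enteric glia markers summed to 29.2 and 18.0 CPM in WT and 10.9 and 17.8 CPM in MYC-KI, and 0 were called.

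The effectors were read at very different depths. *Il25*, the interleukin by which tuft cells call on innate lymphoid cells (chr14:54932695-54935837, plus strand), had 1 and 0 counts in WT and 5 and 13 counts in MYC-KI. It did not pass the filter on low counts, and a count of 0 in WT replicate 2 allows up to 3 counts. The ratio of the summed counts, scaled by library, was 14.1 with an exact 95% interval of 2.22 to 586 that covers counting error only. *Chat*, the enzyme that makes acetylcholine (chr14:32408203-32465989, minus strand), had 5 and 2 counts in WT and 21 and 29 counts in MYC-KI, which are 0.149 and 0.0717 CPM against 0.619 and 0.649 CPM. There was no overlap, and the log2 fold change was 2.46 (SE 0.59), 3.08 without WT replicate 1 and 2.06 without WT replicate 2. *Chat* was not called. *Chat* and *Gfi1b* passed the filter, which needs 2 samples, only through MYC-KI, since 0 and 1 WT samples reached its level.

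The leukotriene genes had more counts. *Alox5*, the 5-lipoxygenase that starts leukotriene synthesis (chr6:116410077-116461178, minus strand), had 9.39 and 8.96 CPM in WT and 42.0 and 29.3 CPM in MYC-KI. WT samples were close together, both MYC-KI samples were above them, and the log2 fold change was 1.96 (SE 0.22). *Ltc4s*, the synthase that makes leukotriene C4 (chr11:50236461-50238616, minus strand), had 4.74 and 6.77 CPM in WT and 13.4 and 12.0 CPM in MYC-KI. It did not overlap either, at a log2 fold change of 1.15 (SE 0.25), and was not called. Mast cells and myeloid cells use both enzymes. The 10 mast cell markers summed to 85.5 and 113 CPM in WT and 276 and 274 CPM in MYC-KI, and 6 of them rose, among them the proteases *Mcpt1* (log2 fold change 4.62, adjusted p = 0.0378), *Mcpt2* (2.93, adjusted p = 0.0287), *Tpsb2* (1.98, adjusted p = 0.0421) and *Cma1* (1.38, adjusted p = 0.0367, edgeR). *Kit*, the most abundant in WT, had 57.1 and 64.2 CPM in WT and 56.0 and 53.4 CPM in MYC-KI. In MYC-KI it lay below *Mcpt1* (80.4 and 94.3 CPM) and *Mcpt2* (67.3 and 64.5 CPM). The 10 myeloid markers summed to 259 and 271 CPM in WT and 126 and 121 CPM in MYC-KI. Of these 5 fell, with *Lyz2* the most abundant (log2 fold change -1.60, adjusted p = 0.00975), then *Csf1r* (-1.56, adjusted p = 0.0152) and *Adgre1* (-2.27, adjusted p = 0.0205), and *Cd14* rose (1.95, adjusted p = 0.0294, edgeR). Beside these counts stand 5.65% called higher and 5.08% lower over all genes tested. The part of mast cells and myeloid cells in the *Alox5* and *Ltc4s* values was not tested.

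Levels were compared between genes per kilobase of merged exons, which join all annotated transcripts of a gene. Which transcripts were expressed was not tested, so the order of genes also depends on this length (15.3 kilobases for *Dclk1*). In WT, *Avil* stood first with 77.4 ± 3.72 CPM per kilobase (SD, n = 2), followed by *Ltc4s* (5.68 ± 1.42) and *Alox5* (2.23 ± 0.0732). The samples of *Dclk1* (1.79 ± 0.268), *Trpm5* (1.72 ± 0.148) and *Gnat3* (1.58 ± 0.341) overlapped from each to the next in CPM per kilobase, and those of *Pou2f3* (0.755 ± 0.180) and *Gfi1b* (0.153 ± 0.0325) lay below. *Chat* (0.0235 ± 0.0116) and *Il25* (0.0140 ± 0.0198) were last and overlapped. In MYC-KI, *Avil* was again first with 68.9 ± 8.36 CPM per kilobase (SD, n = 2) and *Ltc4s* next with 12.6 ± 0.977. *Trpm5* (8.69 ± 2.90), *Alox5* (8.68 ± 2.18) and *Dclk1* (6.76 ± 1.93) came next with neighbours that overlapped, ahead of *Pou2f3* (2.74 ± 0.0814), *Gnat3* (1.57 ± 0.541) and *Gfi1b* (0.775 ± 0.248). Thus *Gnat3* overlapped *Trpm5* in WT, and lay below *Pou2f3* in MYC-KI, on the same scale. *Avil* shares 165 of its exonic bases with *Tsfm* on the opposite strand, which had 23.2 and 22.5 CPM in WT, *Ltc4s* shares 268 with *Gm26542*, and *Dclk1* shares 87 with *Gm42609* and 27 with *Gm21954*.

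A list of 45 further tuft cell genes, none of them among the 10, was read in the same fit. This list was also chosen with earlier results of these data known, so its counts are given as a description. Of the 45 genes 38 were tested, 12 rose, 1 fell (*Itpr2*) and 25 did not pass, beside 5.65% called higher and 5.08% lower over all genes tested. The median log2 fold change of those tested was 0.62, beside 0.01 over all genes tested. No overlap with MYC-KI higher was seen in 26 of the 38 and with MYC-KI lower in 7, beside 33.3% and 31.5% of genes tested. Each of the 13 called genes kept its direction with DESeq2, with library size alone and with any sample left out. With either WT sample left out edgeR called 0 of them, without MYC-KI replicate 1 *Hmx3*, *1810046K07Rik*, *Fyb* and *Hpgds* lost the call, and without MYC-KI replicate 2 *1810046K07Rik* did. At an unadjusted p under 0.05, 19 of the 38 passed without WT replicate 1, beside 3554 of 18333 genes, and 20 without WT replicate 2, beside 3410 of 18615. DESeq2 called 19 on all 4 samples, 17 higher and 2 lower, beside 1502 higher and 1730 lower over the whole table.

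**Figure D2:**
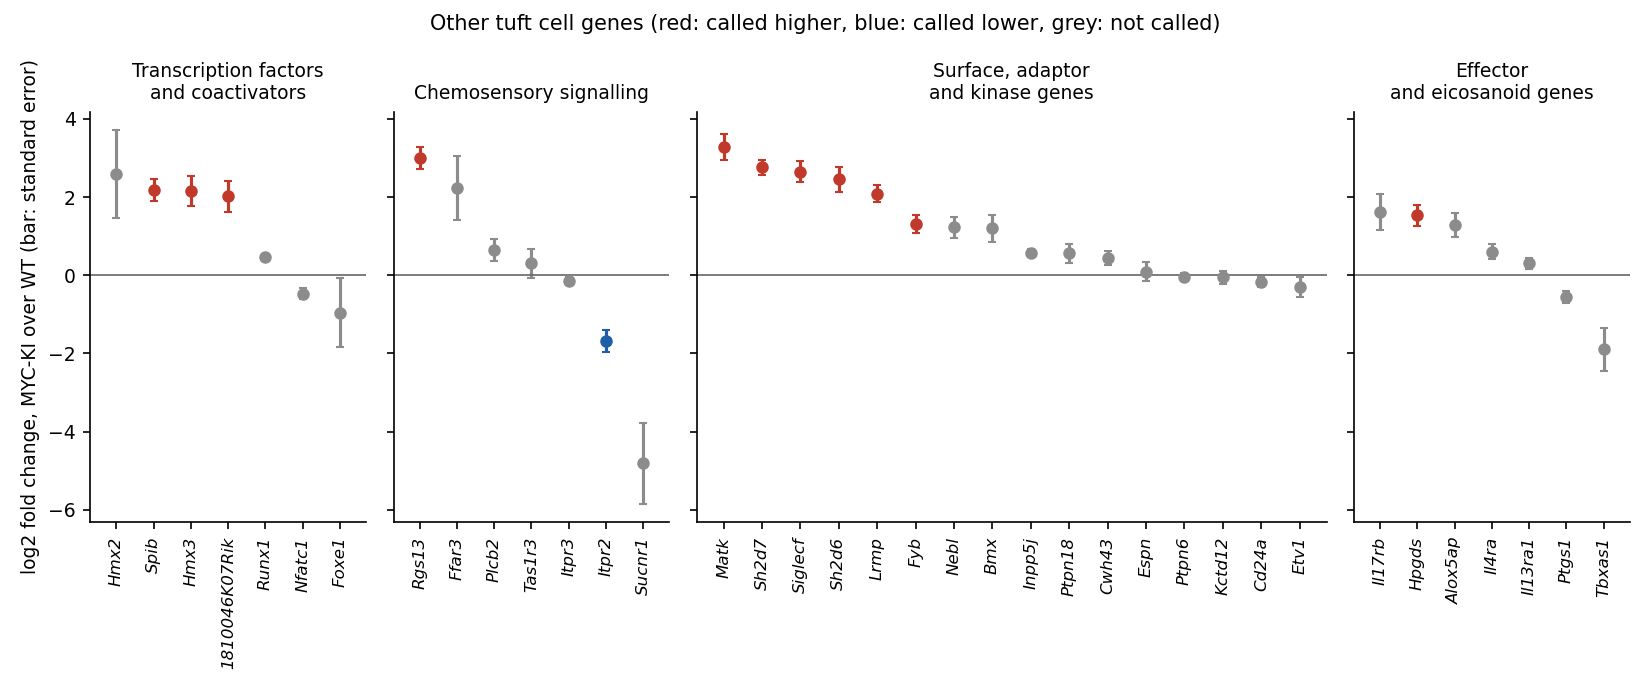
Log2 fold change of MYC-KI over WT with its standard error for 37 of the 38 further tuft cell genes tested, in 4 groups by role, red where called higher, blue where called lower and grey where not called. The points run from *Matk* at 3.28 down to *Sucnr1*, whose value rests on 1 MYC-KI count.

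Among 7 transcription factors and coactivators 3 rose, beside 5.65% called higher over all genes tested. *Spib*, an ETS factor shared with B cells, had 5.10 and 5.23 CPM in WT and 29.0 and 17.7 CPM in MYC-KI (log2 fold change 2.18, SE 0.29, adjusted p = 0.0272, edgeR). *Hmx3*, a homeobox factor, had 1.01 and 1.43 CPM in WT and 6.57 and 4.30 CPM in MYC-KI (2.15, SE 0.38, adjusted p = 0.0400). *1810046K07Rik*, now named *Pou2af2*, encodes a coactivator that binds POU2F3. It had 20 counts in each WT sample and 108 and 97 counts in MYC-KI, a log2 fold change of 2.02 (SE 0.40, adjusted p = 0.0472), so the factor and its partner were both higher in both MYC-KI samples. *Runx1*, the most abundant of the group, had 63.9 and 70.8 CPM in WT and 94.9 and 91.0 CPM in MYC-KI, and its log2 fold change of 0.46 was under the threshold.

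Of 14 chemosensory signalling genes 7 were tested, 1 rose, 1 fell and 5 were not called, beside 5.65% higher and 5.08% lower over all genes tested. *Rgs13*, a regulator of G protein signalling and the only gene called higher in this group of 14, had 3.49 and 5.09 CPM in WT and 39.4 and 29.4 CPM in MYC-KI (8.03-fold, log2 SE 0.28, adjusted p = 0.0188, edgeR). *Itpr2*, an inositol trisphosphate receptor found in many tissues, fell, with 16.4 and 23.6 CPM in WT and 7.22 and 5.19 CPM in MYC-KI (log2 fold change -1.69, SE 0.28, adjusted p = 0.0369). *Itpr3*, the receptor of taste cells and the most abundant gene of the group, had 505 and 548 CPM in WT and 453 and 498 CPM in MYC-KI and was not called. *Plcb2*, the phospholipase of the cascade, had 3.55 and 4.55 CPM in WT and 7.13 and 5.55 CPM in MYC-KI and was not called either. *Gng13*, the gamma subunit that works with gustducin, had 1 count in WT replicate 1, 0 in WT replicate 2 and 8 and 13 in MYC-KI, a ratio of 16.4 with an exact 95% interval of 2.64 to 679. *Sucnr1*, the succinate receptor by which tuft cells of the intestine detect microbes, went the other way, from 13 and 15 counts in WT to 1 and 0 in the MYC-KI pair, a ratio of 0.0279 (exact 95% interval 0.000683 to 0.169). Both intervals cover counting error only. Of the 773 exonic bases of *Gng13* 399 are shared with *Chtf18* on the opposite strand, and reads from these bases cannot be told apart. *Sucnr1* was not called and *Gng13* was not tested. *Plcb2*, *Gng13* and *Sucnr1* fall outside the rule for named genes and were picked with their values known. The taste receptor genes *Tas2r138* and *Tas2r143* were at 0 in every sample, and 7 of the 14 genes were not tested.

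In the group of 17 surface, adaptor and kinase genes 7 rose, beside 5.65% called higher over all genes tested. *Matk*, a kinase that restrains Src kinases, had 1.64 and 1.08 CPM in WT and 15.0 and 11.5 CPM in MYC-KI (log2 fold change 3.28, SE 0.33, adjusted p = 0.0198, edgeR). *Sh2d7*, an adaptor, had 5.60 and 5.16 CPM in WT and 41.2 and 31.8 CPM in MYC-KI (2.76, SE 0.19, adjusted p = 0.0150). *Siglecf*, a sialic acid receptor of tuft cells and eosinophils, had 2.86 and 2.83 CPM in WT and 21.3 and 14.4 CPM in MYC-KI (2.65, SE 0.26, adjusted p = 0.0198). In each of these the lower MYC-KI sample was MYC-KI replicate 2 and lay above both WT samples. *Sh2d6*, *Lrmp* and *Fyb* rose by log2 fold changes of 2.45, 2.08 and 1.31 (adjusted p = 0.0268, 0.0204 and 0.0405), again with both MYC-KI samples above both WT samples. *Cd24a*, the most abundant gene of the whole list, had 1289 and 1296 CPM in WT and 1257 and 1040 CPM in MYC-KI and was not called. *Fyb*, *Lrmp*, *Spib*, *Rgs13* and *Siglecf* are also expressed by blood cells. Of the 6 general leukocyte markers 0 were called, and they summed to 18.7 and 27.9 CPM in WT and 26.4 and 15.9 CPM in MYC-KI, with *Ptprc* the most abundant. The 4 genes listed as eosinophil markers summed to 2.86 and 4.87 CPM in WT and 1.71 and 1.14 CPM in MYC-KI, with 0 called. *Siglece* gave 2.26 and 1.86 CPM of these sums in WT and 1.15 and 0.851 CPM in MYC-KI. The defining marker *Epx* was at 0 in every sample, so the sums say little about eosinophils. Only 2 of the 4 could be tested. Other blood cell markers moved both ways: 6 of 10 mast cell markers rose, 1 of 10 myeloid markers rose and 5 fell, and of the megakaryocyte and erythroid markers 1 rose and 1 fell. The part of blood cells in these values was not tested.

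Of 7 effector and eicosanoid genes 1 rose and 0 fell, beside 5.65% called higher and 5.08% lower over all genes tested. No overlap with MYC-KI higher was seen in 5 of the 7 and with MYC-KI lower in 2, beside 33.3% and 31.5%. *Hpgds*, the prostaglandin D2 synthase of tuft and mast cells, had 2.50 and 3.55 CPM in WT and 9.29 and 8.15 CPM in MYC-KI (log2 fold change 1.53, SE 0.28, adjusted p = 0.0408, edgeR). *Il13ra1*, the most abundant of the group, had 86.3 and 90.7 CPM in WT and 122 and 96.4 CPM in MYC-KI and was not called. The 2 lower genes were *Ptgs1* and *Tbxas1*. *Ptgs1* had 35.9 and 35.2 CPM in WT and 21.5 and 27.0 CPM in MYC-KI. *Tbxas1* had 4.26 and 5.95 CPM in WT and 0.767 and 1.95 CPM in MYC-KI. Neither was called, and both were picked with their values known.

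The cells that tuft cells speak to were read through 40 genes for signals, receptors and enzymes around interleukins, leukotrienes and acetylcholine. These genes too were chosen with earlier results of these data known. Of these 28 were tested, 1 rose (*Areg*) and 3 fell (*Il33*, *Cysltr1* and *Slc5a7*), beside 5.65% called higher and 5.08% lower over all genes tested. The median log2 fold change was -0.38 beside 0.01. No overlap with MYC-KI higher was seen in 5 of the 28 and with MYC-KI lower in 15, beside 33.3% and 31.5% of genes tested. With library size alone 2 rose and 2 fell, as *Il33* (-0.48) was then under the fold threshold, and with DESeq2 3 rose and 4 fell. *Areg*, an EGF receptor ligand, had 20.5 and 20.0 CPM in WT and 55.5 and 89.4 CPM in MYC-KI (log2 fold change 1.84, SE 0.25, adjusted p = 0.0287, edgeR). *Il33*, an alarmin, had 119 and 129 CPM in WT and 76.7 and 75.3 CPM in MYC-KI (-0.71, SE 0.08, adjusted p = 0.0228). *Cysltr1*, a receptor for cysteinyl leukotrienes, had 4.74 and 5.81 CPM in WT and 1.65 and 1.63 CPM in MYC-KI (-1.68, SE 0.28, adjusted p = 0.0357). *Cysltr2*, the other receptor for these leukotrienes, was higher in both MYC-KI samples, with 1.28 and 1.22 CPM in WT and 2.27 and 1.90 CPM in MYC-KI (0.74, SE 0.33). It was not called and was picked with its values known. *Slc5a7*, the choline transporter of cholinergic neurons, had 3.37 and 2.44 CPM in WT and 0.442 and 0.694 CPM in MYC-KI (-2.34, SE 0.43, adjusted p = 0.0424), where *Chat* had more counts than in WT. *Slc18a3*, the vesicular acetylcholine transporter, lies inside the *Chat* gene on the same strand (chr14:32462438-32464850), shares no annotated exonic base with it and had 1.28 and 0.932 CPM in WT and 0.590 and 0.336 CPM in MYC-KI. It was chosen for that position after its values were seen and was not called. *Slc18a3* is also among the 13 enteric neuron markers, which had a median log2 fold change of -0.94. Of the 13, 11 were lower in MYC-KI with no overlap, beside 31.5% of genes tested. The part of neurons in these values was not tested. *Bche* had the highest mean of this list in WT (135 CPM) and was not called. In MYC-KI its mean was 94.1 CPM, against 94.9 CPM for *Il17rc*. With either WT sample left out edgeR called no gene of the list or of the whole table. *Areg*, *Il33*, *Cysltr1* and *Slc5a7* kept their direction in both fits. *Cysltr1* also lost its call without either MYC-KI sample, and *Slc5a7* without MYC-KI replicate 1.

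Of the type 2 cytokine genes in that list *Il9* was at 0 in every sample, *Il5* had 0 counts in WT and 1 and 2 in MYC-KI, *Il13* had 0 counts in WT and 2 in each MYC-KI sample, and *Il4* had 5 and 8 WT counts against 4 and 1 in MYC-KI. None of the 4 could be tested, and at these counts a difference was not detectable. These genes were named after their values were seen.

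The other marker lists are given for the whole tissue. All marker lists were chosen with earlier results of these data known. Of all 104 marker genes of other cell types 97 were tested, 8 rose and 24 fell. Over all genes tested 5.65% were called higher and 5.08% lower. With either WT sample left out edgeR called none of the marker genes, and none of the whole table. In the parietal list 5 of 6 fell, with *Atp4a* the most abundant (log2 fold change -5.59, adjusted p = 0.00884), then *Atp4b* (-5.82, adjusted p = 0.00635), *Gif* (-4.44, adjusted p = 0.0152) and *Slc26a9* (-3.81, adjusted p = 0.0188, edgeR). In the chief cell list 4 of 5 fell, led by *Pgc* (-6.00, adjusted p = 0.00975) and *Chia1* (-8.81, adjusted p = 0.00141, edgeR), with *Gif* in both lists and *Lipf* at 0 in every sample. In the surface mucous list 4 of 5 fell, *Gkn2*, *Gkn1*, *Muc5ac* and *Tff1*, with log2 fold changes of -1.88, -1.73, -2.46 and -1.23. In the endocrine list 5 of 7 fell, among them *Chga*, *Ghrl*, *Chgb* and *Sst*, with log2 fold changes of -1.98, -1.94, -1.73 and -2.41. In the mucous neck (most abundant *Tff2*), intestinal (*Vil1*), squamous (*Krt13*), smooth muscle (*Myh11*) and pan-epithelial (*Krt8*) lists 0 genes were called by edgeR. The pan-epithelial markers summed to 7920 and 8657 CPM in WT and 8904 and 9483 CPM in MYC-KI. The part of these lists in the tuft cell values was not tested.

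**Figure D3:**
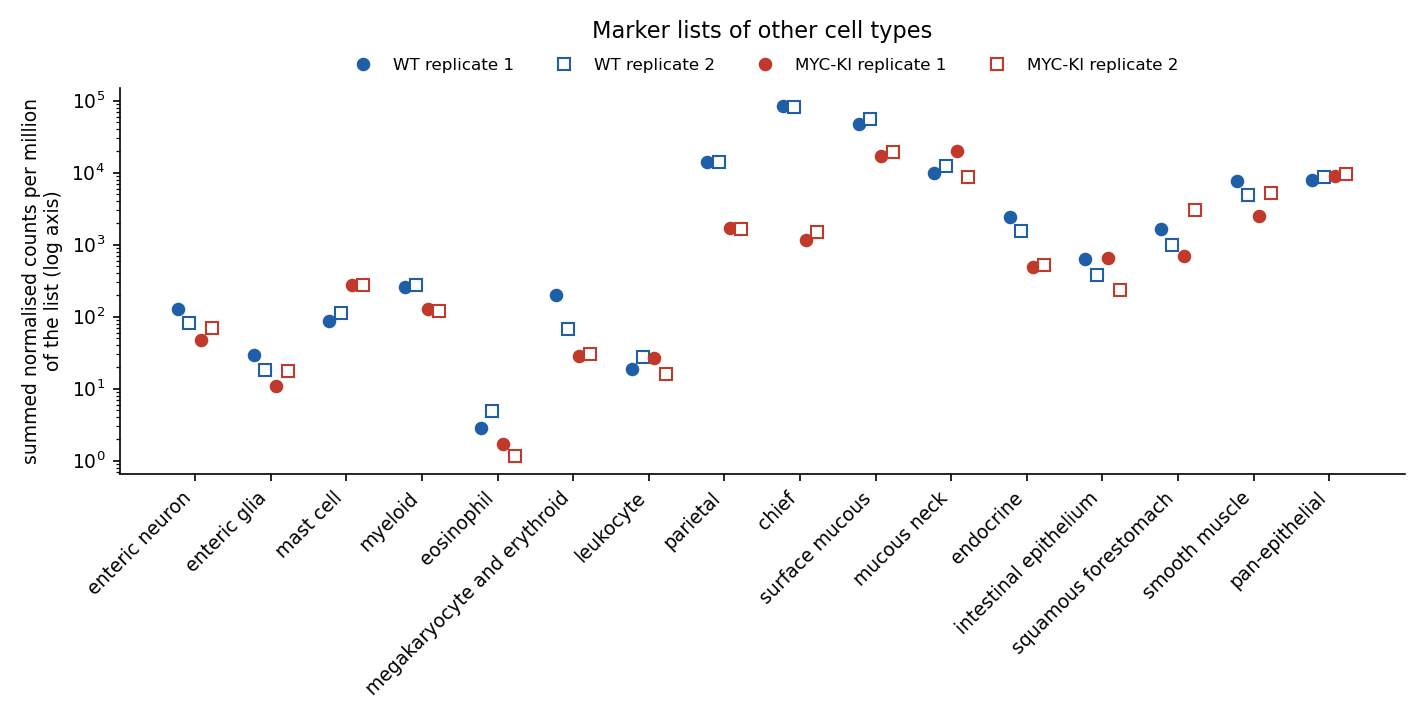
Summed normalised CPM (log axis) of each marker list of other cell types in each of the 4 samples, blue for WT and red for MYC-KI, filled circles for replicate 1 and open squares for replicate 2. Parietal and chief cell sums are lower in both MYC-KI samples, mast cell sums are higher in both, and squamous sums set the MYC-KI samples apart from each other at 702 and 3071.

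Promoters were read for the octamer ATGCAAAT, which POU domain factors such as POU2F3 bind, and for the E-box CACGTG, which MYC with MAX binds. Each promoter is 300 bases from RefSeq (GRCm38.p6), 250 before and 50 after the start, searched on both strands. Entries matched 8 of the 10 tuft cell genes (not *Pou2f3* and *Il25*) and 37 of the 45 further genes. These genes have 9 and 48 promoters. The octamer was in 0 of the 9 and in 7 of the 48, each of another gene, beside 1.74% of 32851 promoters in all. The E-box was in 1 of the 9 (*Chat*) and 3 of the 48 (*Itpr3*, *Nebl* and *Runx1*), beside 7.15% in all. A gene can have more than 1 promoter in the table and a match is a description, not a site. The octamers are shown with 16 bases on each side, in the direction of the gene, in lower case with the octamer or its reverse complement ATTTGCAT in capitals. *1810046K07Rik* and *Hpgds* rose, and *Il4ra*, *Itpr3*, *Kctd12*, *Sucnr1* and *Tas2r108* were not called or not tested.
1810046K07Rik, chr9:51328981-51329020, minus strand: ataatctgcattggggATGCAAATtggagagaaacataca
1810046K07Rik, chr9:51328950-51328989, minus strand: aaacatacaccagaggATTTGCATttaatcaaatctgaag
Hpgds, chr6:65144881-65144920, minus strand: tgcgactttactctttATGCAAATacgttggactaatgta
Il4ra, chr7:125552116-125552155, plus strand: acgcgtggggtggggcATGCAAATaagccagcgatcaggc
Itpr3, chr17:27057261-27057300, plus strand: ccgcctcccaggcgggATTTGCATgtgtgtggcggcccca
Kctd12, chr14:102982774-102982813, minus strand: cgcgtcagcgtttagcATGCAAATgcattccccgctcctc
Sucnr1, chr3:60081805-60081844, plus strand: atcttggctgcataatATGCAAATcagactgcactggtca
Tas2r108, chr6:40493430-40493469, plus strand: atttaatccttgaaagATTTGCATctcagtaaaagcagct

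The promoter of *1810046K07Rik* is given whole because it alone among those read for these 2 lists held the octamer at 2 places, 86 and 55 bases before the start, once on each strand (chr9:51328869-51329168, minus strand, GRCm38.p6, octamers in capitals).
1810046K07Rik: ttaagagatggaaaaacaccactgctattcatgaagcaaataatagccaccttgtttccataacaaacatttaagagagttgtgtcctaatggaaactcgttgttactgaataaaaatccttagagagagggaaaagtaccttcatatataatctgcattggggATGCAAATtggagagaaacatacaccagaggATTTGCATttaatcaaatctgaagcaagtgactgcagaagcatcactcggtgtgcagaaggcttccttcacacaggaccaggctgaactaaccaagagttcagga

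The *Chat* promoter is given as the only promoter of the 8 tuft cell genes with either motif, an E-box that begins at base 153 of the 300 (chr14:32465860-32466159, minus strand, E-box in capitals).
Chat: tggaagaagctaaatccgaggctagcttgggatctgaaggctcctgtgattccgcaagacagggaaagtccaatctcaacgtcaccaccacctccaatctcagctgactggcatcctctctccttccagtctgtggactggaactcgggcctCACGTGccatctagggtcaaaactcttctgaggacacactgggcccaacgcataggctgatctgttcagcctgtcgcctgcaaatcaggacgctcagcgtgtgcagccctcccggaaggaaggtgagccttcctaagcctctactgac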

How the data were processed

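RNA from whole stomach of 2 WT and 2 MYC-KI samples was measured. Per the labels, the authors used HISAT2 and the mm10 build, with no version given, and deposited raw counts per gene symbol without normalisation. The counting tool and annotation are not given in the sources used here. The 10 genes and all gene lists were chosen with earlier results of these data known. MYC-KI counts, in row order, were assigned to the names sorted by character code, and WT counts were left as they are. Counts were fitted across all genes with edgeR 4.0.16 in R 4.3.3. Settings were TMM normalisation factors, filterByExpr with a minimum of 10 counts, the quasi-likelihood test and Benjamini-Hochberg adjustment. The thresholds were those of the study (0.05 and 1.5-fold). DESeq2 1.42.0, the package that the study used, was fitted as an alternative. Levels are CPM, counts scaled to 1000000 of the library size times the TMM factor. The common dispersion had a square root of 0.295. The scripts were tested on simulated data. SE is the absolute log2 fold change over the square root of F. Exon lengths and positions are from GENCODE M21 (GRCm38), where 1 listed gene, *Dpep2*, had no single match.

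Named genes were all 10 tuft cell genes, the called genes of the lists of further tuft cell genes (all but 1) and of signals and receptors, the most abundant gene of each of these lists and of each marker list but 1 by mean CPM, and at most 4 called genes of each marker list. Genes named outside this rule were picked with their values known. Alternatives were the table as deposited, DESeq2, its size factors in edgeR, library size alone, the replicate block, fits without the low count filter or with 10 counts needed throughout, each sample left out, no fold threshold and an absolute log2 fold change above 1.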

Additional observations from a re-analysis of the deposited data

How the results depend on the processing

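Of all genes tested 1892 were called, against 18580 in the table as deposited, 3232 with DESeq2, 3011 with library size alone and 1113 at an absolute log2 fold change above 1. For the tuft cell genes the count was 4, against 7 as deposited and 7 with library size alone. For the further tuft cell genes it was 13, against 39 as deposited. For signals and receptors it was 4, against 29 as deposited and 7 with DESeq2. For the marker lists it was 32, against 86 as deposited. Called tuft cell genes that reversed in the table as deposited were *Trpm5* (-1.01), *Dclk1* (-10.66), *Pou2f3* (-9.31) and *Alox5* (-1.49), where the names stand beside other counts.

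With each sample left out in turn edgeR called 0 to 2470 genes over the table, 0 to 4 of the tuft cell genes, 0 to 18 of the further tuft cell genes, 0 to 5 of the signals and receptors and 0 to 32 of the marker genes. The 0 came without WT replicate 1 and without WT replicate 2, where the lone WT sample is assumed to vary like the MYC-KI pair and the spread rests on that pair. In both of these fits the 4 called tuft cell genes and the 13 called further tuft cell genes kept their direction. DESeq2 was not run with a sample left out.

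With the replicate block edgeR called 114 genes over the table, 0 tuft cell genes, 1 further tuft cell gene (*Sh2d7*), 0 signals and receptors and 9 marker genes; at an unadjusted p under 0.05 the 5 counts were 5178, 7, 24, 8 and 44. The samples share only a number, since the replicate differences of the genotypes correlated at r = 0.042 over 15777 genes.

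Outside the deposited table, tuft cell gene fold changes moved by less than the spread between replicates in 85 of 88 gene and setting pairs. The 3 others were *Avil* with library size alone and *Chat* without either WT sample. Leaving out a sample shifts its group's mean by less than the difference within the pair, so this tally says little about stability. The alternatives for the marker lists and for single genes of the other lists were added after seeing the data. With 2 samples a group, *Il25*, *Chat* and *Gfi1b* had under 10 counts in each WT sample. Whether depth limited their calls was not tested.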
